A study of Homo sapiens with 18 samples.

Results

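The transcripts described here encode aminoacyl-tRNA synthetases, the enzymes that join each amino acid to its tRNA. They were taken as the table rows whose symbol belongs to a list of 35 synthetase genes, and all 35 were found among the 59385 genes of the table. The list held 19 genes for cytosolic enzymes (symbols ending in 1, with FARSA and FARSB, which encode the subunits of the phenylalanine enzyme) and 16 for mitochondrial enzymes (symbols ending in 2). GARS1 and KARS1 encode both the cytosolic and the mitochondrial form of their enzyme and were counted as cytosolic.

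The study knocked down protein disulphide isomerases, which form and rearrange disulphide bonds in the endoplasmic reticulum, in LNCaP cells, an androgen-responsive human prostate cancer line. RNA-seq was run on cells transfected with a control siRNA (siNC), an siRNA to PDIA1 (gene symbol P4HB; siPDIA1) or an siRNA to PDIA5 (siPDIA5), and collected after 48 h or 96 h. Each of these 6 groups had 3 libraries, 18 in all, from the unmodified line kept in serum-supplemented medium and exposed to the transfection reagent RNAiMAX. Nothing in the labels ties the 3 libraries of a group to separate cultures, and the p-values therefore measure the spread between libraries, which may be technical. Whether each siRNA was a pool or a single sequence is not given in the sources used here.

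Synthetases fall into 2 structural classes, and in animal cells several cytosolic ones are held in a multisynthetase complex on scaffold proteins. The mitochondrial enzymes are also encoded in the nucleus and are imported to serve translation of the mitochondrial genome. Uncharged tRNA activates the kinase GCN2, and endoplasmic reticulum stress activates the kinase PERK; both lead to translation of the transcription factor ATF4, which is known to induce many cytosolic synthetase genes together with genes for amino acid synthesis and transport.

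The deposited values were RPKM (read density by gene length and library depth), without counts. The step between low values gave an estimated 29.2 to 43.9 M reads per library. P4HB fell from 66.9 ± 0.76 RPKM with siNC to 5.73 ± 0.46 with siPDIA1 at 48 h and from 68.9 ± 4.8 to 9.16 ± 0.95 at 96 h (SD, n = 3 throughout). PDIA5 fell from 14.0 ± 0.46 to 1.55 ± 0.19 RPKM with siPDIA5 at 48 h and from 14.9 ± 1.2 to 1.40 ± 0.20 at 96 h. With siPDIA5, P4HB itself rose to 129 ± 3.1 RPKM at 48 h and 124 ± 5.6 at 96 h. The 6 luminal prostate markers summed to between 627 and 1202 RPKM in every library, whereas basal markers reached at most 0.728 and leukocyte markers at most 0.381. Fibroblast markers summed to at most 3.59 RPKM, a level that COL1A1 alone reached. Endothelial markers summed to at most 3.29, highest with siPDIA1 at 96 h, and VWF alone reached 3.24. The luminal sum was highest with siPDIA5 at 96 h, at 1158 to 1202 RPKM against 670 to 765 with siNC. KLK3 alone ranged from 222 to 609 RPKM over the libraries. The share of estimated reads from mitochondrially encoded genes was also highest in that group, at 12.6% to 13.9% against 10.1% to 11.1% with siNC at 96 h. The part of these shifts in the synthetase results was not tested. Library 1 of siPDIA1 at 96 h stood apart, with a root mean square deviation from its group of 0.247 on the log2 scale against 0.109 to 0.179 for the other libraries. Library 3 of that group had 29505 genes above 0, against 20813 to 24882 in the other libraries.

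Transcripts of the cytosolic enzymes were the more abundant. Their mean level over the 18 libraries had a median of 39.5 RPKM over 19 genes, against 10.1 RPKM over the 16 mitochondrial genes. FARSA, for the catalytic subunit of the phenylalanine enzyme, stood highest at 160 RPKM, and 13 of 19 cytosolic genes averaged at least 20 RPKM. CARS1, for the cysteine enzyme, was the lowest of the cytosolic genes at 6.61 RPKM. Of the mitochondrial genes only IARS2, for isoleucine, at 42.0 RPKM and TARS2, for threonine, averaged at least 20 RPKM. VARS2, for valine, was listed at 0 in some libraries and averaged 0.036 RPKM, so it was not tested. Its exons share 1858 bases with those of GTF2H4 on the same strand, and its level is uncertain for that reason. SARS2, for mitochondrial serine, was the lowest of the 34 tested genes and is uncertain too, since 46.2% of its exon bases also belong to another gene on the same strand.

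**Figure D1:**
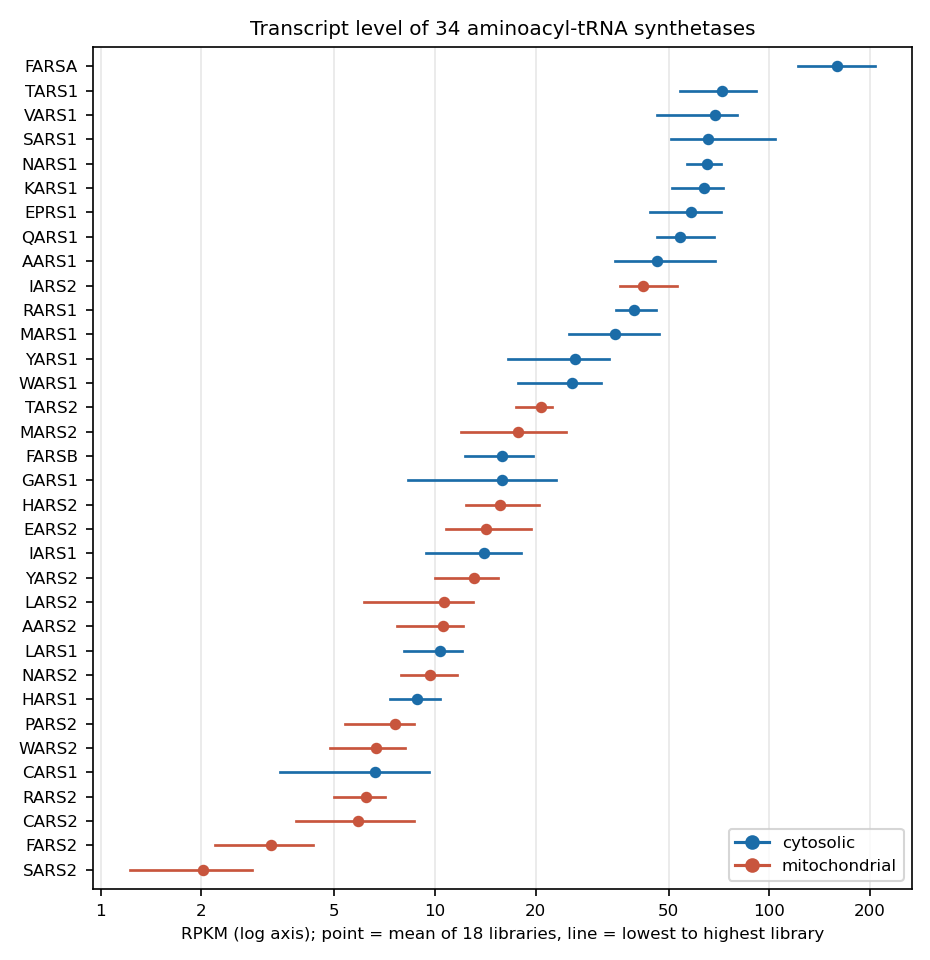
RPKM on a log axis for the 34 tested synthetase genes, with the mean of 18 libraries as a point and the lowest to highest library as a line. Cytosolic genes fill most of the upper rows and FARSA leads at 160 RPKM, with IARS2 at 42.0 RPKM as the highest mitochondrial gene.

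The strongest changes came with PDIA5 knockdown at 96 h. Transcripts for 8 cytosolic synthetases rose, those for the alanine, glycine and serine enzymes most, while 6 other cytosolic transcripts and 9 of 15 tested mitochondrial transcripts fell. No mitochondrial synthetase was called higher. Genes were called with limma on log2(RPKM + 1) at a Benjamini-Hochberg adjusted p under 0.05 over the 11685 genes with a mean of at least 1 RPKM, of which 20.8% were called higher and 30.3% lower in this comparison, 51.1% in all. The median log2 fold change was 0.09 over the cytosolic genes, -0.27 over the mitochondrial genes and -0.06 over all genes tested. Median centring gave 10 cytosolic genes higher and 5 lower, and quantile normalization 11 and 5. Each gave 1 mitochondrial gene higher and 7 lower. The counts over all genes shifted the same way. Median centring called 2785 higher and 3086 lower, and quantile normalization 2818 and 3174, in place of 2433 and 3539.

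AARS1, which charges alanine tRNA (ENSG00000090861.17, chr16:70252295-70289543, minus strand, GRCh38), measured 34.6, 34.8 and 35.5 RPKM with siNC at 96 h and 65.7, 69.1 and 65.6 RPKM with siPDIA5. Every siPDIA5 library lay far above every siNC library, and the ratio of the means was 1.91. The share of all genes whose groups did not overlap was not counted in any comparison, and 51.1% of all genes were called in this one. The log2 fold change was 0.92 ± 0.04 (SE; adjusted p = 4.1e-11, limma). GARS1, the glycine enzyme (ENSG00000106105.15, chr7:30594681-30634033, plus strand), measured 12.2, 12.4 and 12.5 RPKM with siNC and 23.1, 22.0 and 22.1 with siPDIA5. These groups did not overlap either, and the log2 fold change was 0.81 ± 0.05 (adjusted p = 1.5e-09, limma). SARS1, the serine enzyme (ENSG00000031698.13, chr1:109213918-109238169, plus strand), went from 64.5, 57.1 and 61.1 to 99.6, 104 and 97.0 RPKM. That rise of 0.71 ± 0.06 on the log2 scale made SARS1 the most abundant cytosolic synthetase after FARSA in those libraries (adjusted p = 3.6e-08, limma).

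CARS1, for cysteine, measured 6.07, 5.99 and 6.26 RPKM with siNC and 9.36, 9.57 and 8.89 with siPDIA5, a log2 fold change of 0.53 ± 0.08. MARS1, for methionine, measured 30.3, 30.2 and 30.6 RPKM with siNC and 44.1, 46.7 and 42.4 with siPDIA5, also a log2 fold change of 0.53 (SE 0.04). Neither gene's groups overlapped, a trait whose share over all genes was not counted. MARS1 shares 355 exon bases with DDIT3 on the opposite strand. DDIT3, the stress-induced transcription factor CHOP, rose from 8.30 ± 0.93 to 41.5 ± 2.0 RPKM in the same libraries. The libraries were stranded, but the strand setting of the counting is not given in the sources used here, and the part of DDIT3 reads in the MARS1 value was not tested. TARS1 for threonine (0.35), YARS1 for tyrosine (0.34) and LARS1 for leucine (0.30) completed the genes that rose, with smaller log2 fold changes.

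VARS1, the valine enzyme (ENSG00000204394.13, chr6:31777518-31795953, minus strand), moved the other way. It measured 71.8, 69.5 and 73.9 RPKM with siNC at 96 h and 48.6, 46.0 and 46.3 with siPDIA5, with no overlap and a log2 fold change of -0.60 ± 0.05 (adjusted p = 4.1e-08, limma). Both subunits of the phenylalanine enzyme fell, FARSA from 189 ± 18 to 136 ± 4.2 RPKM (log2 fold change -0.46) and FARSB from 17.1 ± 0.37 to 12.5 ± 0.25 (-0.42). RARS1 for arginine (-0.26), QARS1 for glutamine (-0.25) and KARS1 for lysine (-0.16) also fell. The KARS1 call was lost under median centring, quantile normalization and the fit of the compared groups alone (adjusted p up to 0.18, limma). WARS1, IARS1, NARS1, EPRS1 and HARS1 did not pass the test and had log2 fold changes between 0.05 and 0.09.

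The largest falls among the synthetases were mitochondrial. CARS2, for cysteine, measured 8.62, 7.38 and 7.48 RPKM with siNC at 96 h and 4.40, 4.01 and 3.84 with siPDIA5, a log2 fold change of -0.79 ± 0.08 (adjusted p = 5.9e-07, limma). LARS2, for leucine, measured 11.5, 12.8 and 12.2 RPKM with siNC and 6.81, 7.26 and 6.15 with siPDIA5, a log2 fold change of -0.77 ± 0.06 (adjusted p = 1.6e-08, limma). MARS2, for methionine, measured 21.7, 22.7 and 21.7 RPKM with siNC and 13.6, 13.5 and 12.9 with siPDIA5, a log2 fold change of -0.69 ± 0.07 (adjusted p = 3.9e-07, limma). In each of these genes all siPDIA5 libraries lay below all siNC libraries. FARS2 (-0.47), IARS2 (-0.39), WARS2 (-0.39), AARS2 (-0.28), YARS2 (-0.27) and HARS2 (-0.23) fell less. YARS2 fell narrowly (adjusted p = 0.048, limma), with siNC library 2 at 10.5 RPKM among the siPDIA5 values of 10.0 to 11.2. The calls of YARS2 and HARS2 were lost in 10 and 6 alternatives, both scalings included. PARS2, SARS2 and TARS2 had log2 fold changes of 0.23, 0.12 and 0.07 and did not pass the test, and neither did EARS2, NARS2 or RARS2.

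**Figure D2:**
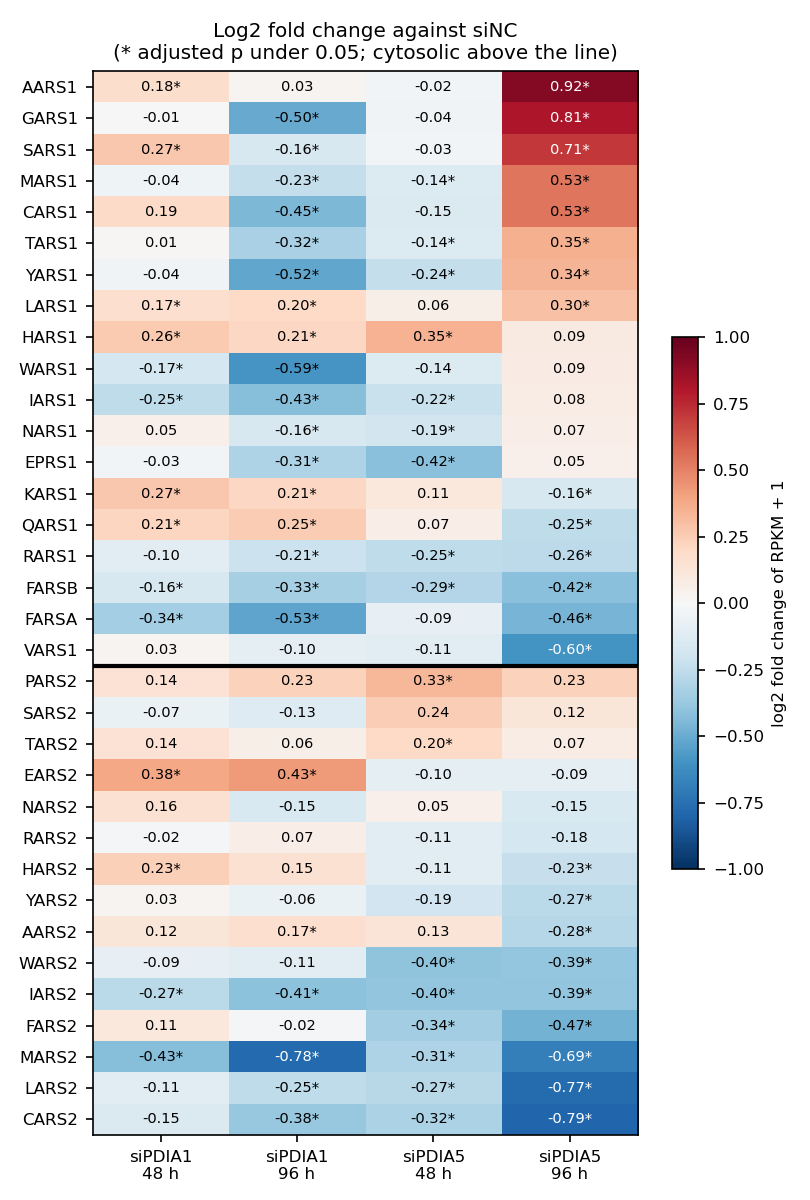
Log2 fold change of RPKM + 1 against siNC for 34 synthetase genes (rows, cytosolic above the line) in 4 comparisons (columns), with red for higher, blue for lower and an asterisk for an adjusted p under 0.05. With siPDIA5 at 96 h the cytosolic rows run from 0.92 for AARS1 to -0.60 for VARS1, and most mitochondrial rows are blue.

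A list of 13 cytosolic synthetase genes often described as ATF4 targets held all 8 that rose with siPDIA5 at 96 h. That list, like the others used here, was chosen with earlier results of these data known. Its match with the genes that rose is therefore a description and no independent support. Of these 13 genes 8 were called higher and 1 lower (VARS1), with a median log2 fold change of 0.34, and of the 6 other cytosolic genes none was called higher and 5 lower, with a median of -0.26. Per library, the median deviation of the 13 genes from siNC was 0.34, 0.37 and 0.29 in the siPDIA5 libraries and between -0.02 and 0.01 in the siNC libraries. ATF4 itself rose from 105 ± 7.6 to 208 ± 3.4 RPKM (log2 fold change 0.98 ± 0.05; adjusted p = 1.5e-10, limma). In a list of amino acid response genes, 14 of 21 tested members were called higher and 3 lower, with a median of 0.53. Of all genes 20.8% were called higher and 30.3% lower in this comparison. The higher members of the amino acid list included TRIB3, a pseudokinase induced by ATF4, at a log2 fold change of 1.26 and SLC7A5, a transporter of large neutral amino acids, at 1.50. ASNS, asparagine synthetase, was not called, at 1.58 ± 0.35 RPKM with siNC and 1.94 ± 0.05 with siPDIA5.

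**Figure D3:**
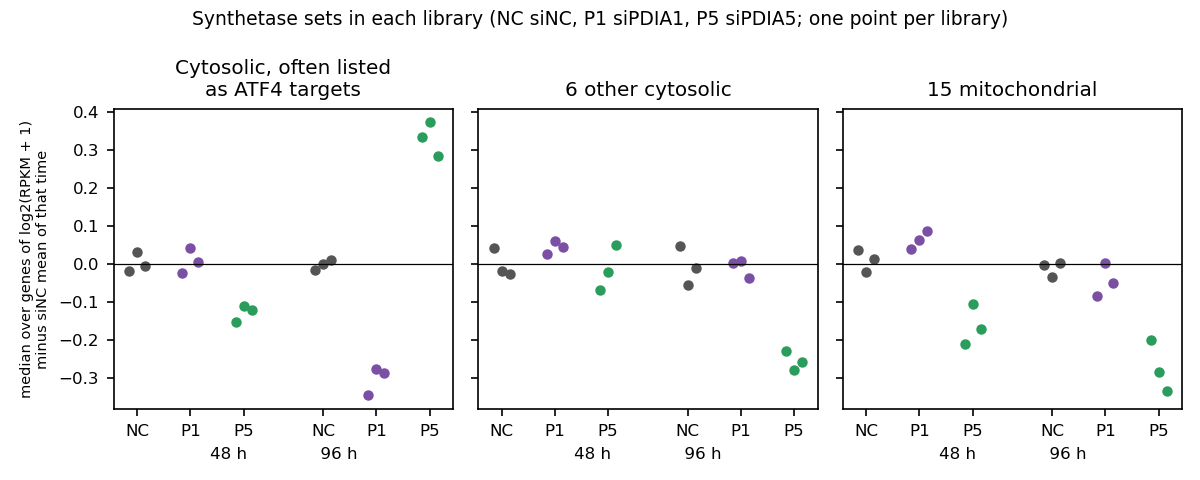
Median over genes of log2(RPKM + 1) minus the siNC mean of the same time, one point per library, for 13 cytosolic synthetases often listed as ATF4 targets, 6 other cytosolic ones and 15 mitochondrial ones. At 96 h the 13 genes sit between 0.29 and 0.37 with siPDIA5 and between -0.35 and -0.28 with siPDIA1. The 6 other cytosolic genes sit between -0.28 and -0.23 with siPDIA5. The list of 13 was chosen with earlier results of these data known.

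Promoter sequences are shown because the members that rose together came from the list of genes often described as ATF4 targets. That list was chosen with earlier results of these data known. ATF4 pairs with C/EBP factors on a composite element whose core reads TGATGNAA. That motif was chosen after the fold changes were known, and it was searched on both strands in the RefSeq promoters (GRCh38.p14, 250 bases before to 50 after a start). Entries were found for 16 of 19 cytosolic genes (not for LARS1, VARS1 or YARS1) and 14 of 16 mitochondrial genes (not for AARS2 or VARS2), some with more than 1 start. The motif lay in at least 1 promoter of 7 cytosolic genes (43.8%), all of them among the 10 listed ATF4 targets with an entry, and of 1 mitochondrial gene, YARS2 (7.14%). Counted by gene in the same way, it occurred in 2.40% of the 8464 tested genes with an entry. Counted by single promoter, it lay in 7 of 21 for the cytosolic genes (33.3%), 1 of 18 for the mitochondrial genes (5.56%) and 3.62% of all 35116. The 7 cytosolic matches follow as windows of 40 bases in the direction of the gene, with the match in capitals.
AARS1 (chr16:70289670-70289709, minus strand): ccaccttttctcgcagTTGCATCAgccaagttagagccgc
GARS1 (chr7:30594829-30594868, plus strand): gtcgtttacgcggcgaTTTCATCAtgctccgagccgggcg
CARS1 (chr11:3057402-3057441, minus strand): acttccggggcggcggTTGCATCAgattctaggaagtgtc
MARS1 (chr12:57488048-57488087, plus strand): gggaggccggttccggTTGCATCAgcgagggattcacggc
TARS1 (chr5:33440951-33440990, plus strand): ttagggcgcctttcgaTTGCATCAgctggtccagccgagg
IARS1 (chr9:92293687-92293726, minus strand): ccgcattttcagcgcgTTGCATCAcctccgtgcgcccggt
NARS1 (chr18:57621799-57621838, minus strand): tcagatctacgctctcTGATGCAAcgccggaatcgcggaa

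In 6 of the windows the match reads as the reverse complement of the motif, and in NARS1 as the motif itself. The first base of the match lay within 33 bases of the RefSeq start in 6 genes and 187 bases before it in AARS1. The 7 genes did not move alike with siPDIA5 at 96 h: AARS1, GARS1, CARS1, MARS1 and TARS1 rose, whereas IARS1 and NARS1 were not called, at 0.08 and 0.07 on the log2 scale. SARS1 rose by 0.71 on that scale with no match in either of its windows. For comparison the whole promoters follow of AARS1, which rose most, of SARS1, which rose without a match, and of MARS2, which fell, with any match in capitals.
AARS1 (chr16:70289457-70289756, minus strand): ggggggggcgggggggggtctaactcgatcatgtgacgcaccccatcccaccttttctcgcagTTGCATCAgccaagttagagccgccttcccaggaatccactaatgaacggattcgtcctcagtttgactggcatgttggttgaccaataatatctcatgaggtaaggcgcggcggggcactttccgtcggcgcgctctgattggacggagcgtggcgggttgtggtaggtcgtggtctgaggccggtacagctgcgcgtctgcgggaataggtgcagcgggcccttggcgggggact
SARS1 (chr1:109213643-109213942, plus strand): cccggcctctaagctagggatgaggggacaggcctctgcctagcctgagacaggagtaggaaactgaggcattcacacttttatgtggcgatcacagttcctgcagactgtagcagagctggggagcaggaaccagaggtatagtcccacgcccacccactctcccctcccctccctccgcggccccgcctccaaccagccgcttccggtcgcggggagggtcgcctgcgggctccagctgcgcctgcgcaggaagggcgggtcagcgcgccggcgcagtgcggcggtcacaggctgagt
MARS2 (chr2:197705119-197705418, plus strand): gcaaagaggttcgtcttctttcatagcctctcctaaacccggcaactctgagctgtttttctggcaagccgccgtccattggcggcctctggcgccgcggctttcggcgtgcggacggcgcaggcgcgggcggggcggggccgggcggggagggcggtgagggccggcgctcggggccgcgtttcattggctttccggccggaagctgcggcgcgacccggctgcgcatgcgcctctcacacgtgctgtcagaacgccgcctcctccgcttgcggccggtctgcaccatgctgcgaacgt

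A match describes letters in a window and does not show binding. HARS1 and HARS2 face away from each other from 1 region on chromosome 5 and their promoter windows share 184 bases. With siPDIA1 at 48 h both rose (log2 fold changes 0.26 for HARS1 and 0.23 for HARS2), and with siPDIA5 at 48 h HARS1 rose (0.35 ± 0.05) and HARS2 was not called (-0.11 ± 0.08). The 437 exon bases that they share on opposite strands make both levels uncertain.

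PDIA1 knockdown at 96 h lowered most cytosolic synthetase transcripts. Of 19 genes 13 were called lower and 4 higher, against 25.2% and 20.1% of all tested genes and 45.3% in both directions. The median log2 fold change was -0.23 over the cytosolic genes and -0.03 over all genes. The tryptophan, phenylalanine, tyrosine and glycine enzymes fell most, and the mitochondrial genes were mixed, with 4 of 15 called lower and 2 higher and a median of -0.06. The siNC libraries were the same as in the siPDIA5 comparison of that time, so the results of both siRNAs are not independent of each other.

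WARS1, for tryptophan (ENSG00000140105.18, chr14:100333788-100376805, minus strand), measured 26.4, 30.0 and 26.5 RPKM with siNC at 96 h and 18.2, 18.1 and 17.7 with siPDIA1. The groups did not overlap and the log2 fold change was -0.59 ± 0.06 (adjusted p = 5.4e-07, limma). YARS1 measured 24.4, 24.8 and 25.9 RPKM with siNC and 16.6, 16.6 and 18.3 with siPDIA1, a log2 fold change of -0.52 ± 0.05. GARS1 fell from 12.4 ± 0.19 to 8.42 ± 0.26 RPKM (-0.50 ± 0.05). GARS1 and YARS1 thus fell with siPDIA1 and rose with siPDIA5 at the same time point. FARSA measured 207, 172 and 187 RPKM with siNC and 122, 136 and 134 with siPDIA1, a log2 fold change of -0.53 ± 0.07, and FARSB fell by 0.33 on that scale.

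CARS1 measured 3.45, 4.46 and 4.77 RPKM with siPDIA1 at 96 h, and the lowest value came from library 1, which stood apart by its deviation. Its log2 fold change was -0.45 ± 0.08, and -0.34 ± 0.06 without that library (adjusted p = 0.00037, limma). IARS1 (-0.43), TARS1 (-0.32), EPRS1 (-0.31), MARS1 (-0.23), RARS1 (-0.21), NARS1 (-0.16) and SARS1 (-0.16) fell as well. SARS1 lost its call in 7 of the alternatives, with adjusted p up to 0.38. NARS1 and RARS1 lost theirs under quantile normalization (adjusted p = 0.47 and 0.087, limma), which gave 5 cytosolic genes higher and 10 lower. Over all genes that scaling called 2656 higher and 2726 lower, in place of 2344 and 2950. The genes called higher were QARS1 (0.25), HARS1 (0.21), KARS1 (0.21) and LARS1 (0.20), which charge glutamine, histidine, lysine and leucine tRNA. KARS1 measured 62.0, 61.1 and 60.8 RPKM with siNC and 71.1, 70.7 and 71.3 with siPDIA1, with no overlap. AARS1, the gene that rose most with siPDIA5, measured 34.9 ± 0.46 with siNC and 35.6 ± 0.92 with siPDIA1 and was not called.

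Among the mitochondrial genes MARS2 fell most with siPDIA1. It measured 21.7, 22.7 and 21.7 RPKM with siNC at 96 h and 12.4, 12.0 and 13.0 with siPDIA1, a log2 fold change of -0.78 ± 0.07 (adjusted p = 1.5e-07, limma). IARS2 (-0.41), CARS2 (-0.38) and LARS2 (-0.25) also fell. EARS2, for glutamate, rose: it measured 11.3, 12.7 and 12.3 RPKM with siNC and 15.5, 16.8 and 17.5 with siPDIA1, with no overlap and a log2 fold change of 0.43 ± 0.07 (adjusted p = 9.5e-05, limma). AARS2 was called higher at 0.17, a call lost in 7 of the alternatives. Without library 1 the counts were 4 higher and 14 lower for the cytosolic genes and 2 higher and 4 lower for the mitochondrial genes, with VARS1 now called lower (-0.15; adjusted p = 0.016, limma), and the mitochondrial median was 0.04 in place of -0.06. Without library 3 they were 4 higher and 13 lower for the cytosolic genes and 1 higher and 4 lower for the mitochondrial genes, with a mitochondrial median of -0.01.

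Of the 13 genes often listed as ATF4 targets, 10 were called lower and 1 higher with siPDIA1 at 96 h, with a median of -0.31. Of the 6 other cytosolic genes 3 were called in each direction. The median of the 13 genes was -0.35, -0.28 and -0.29 in the 3 libraries. ATF4 itself was not called (log2 fold change -0.08 ± 0.05). In the amino acid response list 10 of 21 tested genes were called lower and 1 higher, with a median of -0.25. The all-gene shares are 25.2% lower and 20.1% higher, and the 6 other cytosolic genes are too few to be read against them. PSAT1, an enzyme of serine synthesis, fell from 77.6 ± 2.7 to 50.2 ± 1.4 RPKM, whereas with siPDIA5 it rose to 113 ± 4.5.

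**Figure D4:**
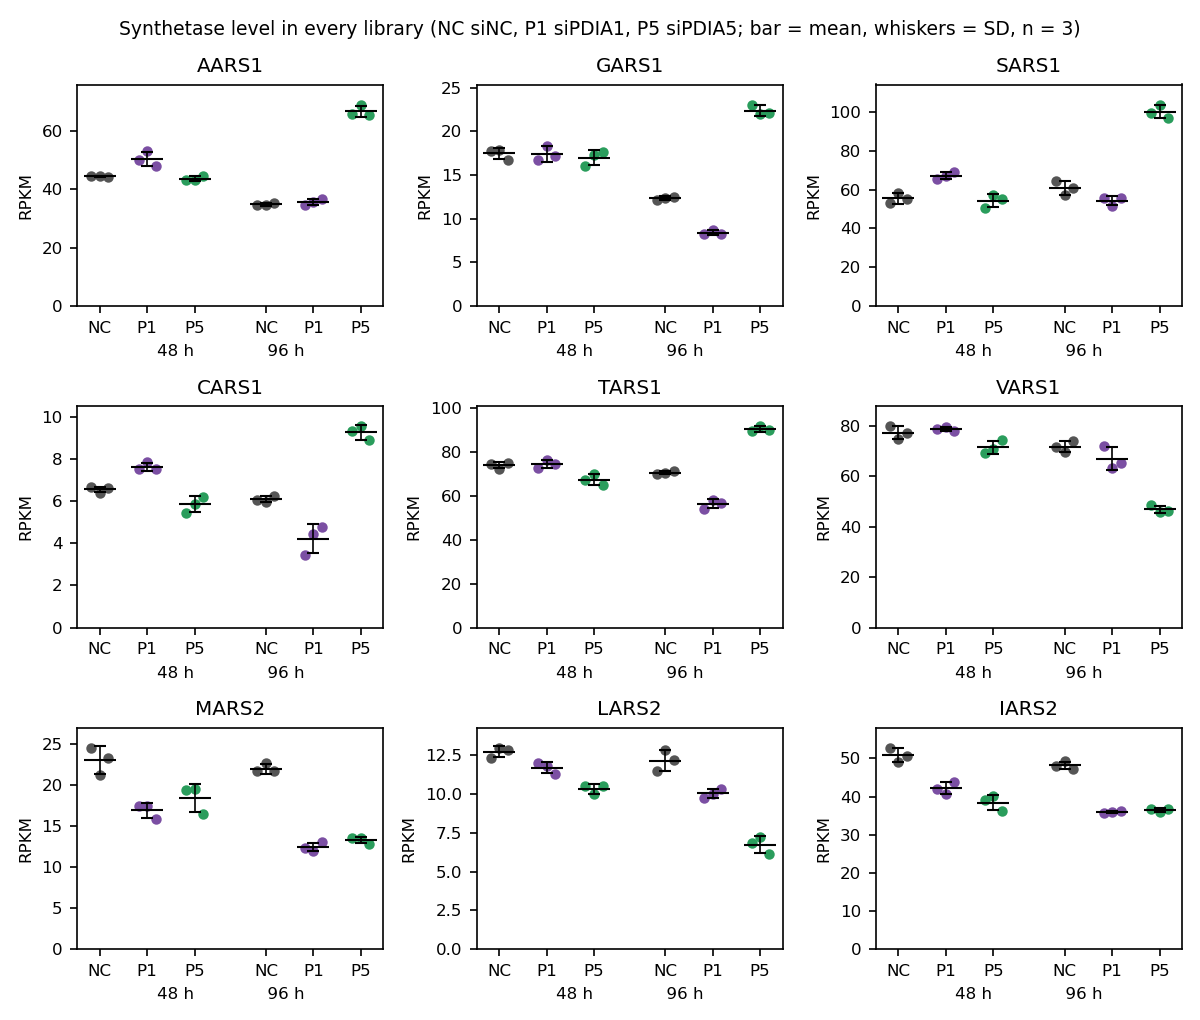
RPKM in each library for 9 synthetase genes at 48 h and 96 h, with the mean (bar) and SD (whiskers) of 3 libraries per group. AARS1 reaches 65.6 to 69.1 RPKM with siPDIA5 at 96 h against 34.6 to 35.5 with siNC, and MARS2 lies lower with both siRNAs at both times.

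At 48 h the changes were smaller. With siPDIA1, 6 cytosolic genes were called higher and 4 lower, and 2 mitochondrial genes in each direction; of all genes 16% were called higher and 17.4% lower, 33.4% in all. The median log2 fold change was 0.01 over the cytosolic genes, 0.03 over the mitochondrial genes and -0.01 over all genes. Quantile normalization gave 6 cytosolic genes higher and 2 lower and 3 mitochondrial genes higher and 2 lower. Over all genes it called 1966 higher and 1998 lower, in place of 1866 and 2031. SARS1 measured 53.0, 58.3 and 55.1 RPKM with siNC and 65.5, 66.9 and 69.2 with siPDIA1, a log2 fold change of 0.27 ± 0.06. KARS1 (0.27), HARS1 (0.26), QARS1 (0.21), AARS1 (0.18) and LARS1 (0.17) rose too. FARSA fell from 184 ± 6.8 to 145 ± 7.7 RPKM (-0.34 ± 0.07), followed by IARS1 (-0.25), WARS1 (-0.17) and FARSB (-0.16). MARS2 measured 24.6, 21.3 and 23.4 RPKM with siNC and 17.5, 17.5 and 15.8 with siPDIA1, a log2 fold change of -0.43 ± 0.07. IARS2 fell by 0.27 on that scale, and EARS2 (0.38) and HARS2 (0.23) rose. The calls of FARSB, WARS1, LARS1 and HARS2 were each lost in at least 4 alternatives.

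With siPDIA5 at 48 h, 1 cytosolic gene was called higher and 8 lower, and 2 mitochondrial genes higher and 6 lower, against 16.6% and 29.2% of all genes (45.8% in all). The medians were -0.14, -0.11 and, over all genes, -0.09. This comparison depended on the scaling. After median centring 4 cytosolic genes were called in each direction and 3 mitochondrial genes higher and 5 lower, with 2728 genes higher and 2239 lower overall in place of 1944 and 3408; quantile normalization gave 1 and 9 cytosolic, 3 and 4 mitochondrial, and 2427 and 2489 genes. EPRS1, for the joint glutamate and proline enzyme, fell most among the cytosolic genes. It measured 67.7, 71.7 and 70.2 RPKM with siNC and 53.3, 54.3 and 48.4 with siPDIA5, with no overlap and a log2 fold change of -0.42 ± 0.07 (adjusted p = 0.00015, limma). WARS2 (-0.40), IARS2 (-0.40), FARS2 (-0.34), CARS2 (-0.32), MARS2 (-0.31) and LARS2 (-0.27) were the mitochondrial genes that fell, and PARS2 (0.33) and TARS2 (0.20) rose. The calls of PARS2 and TARS2 were lost in 4 and 5 alternatives, among them the fit with no filter on low values. That of CARS2 was lost under both scalings and that of FARS2 under quantile normalization. Among the cytosolic genes called lower, MARS1 lost its call in 4 alternatives, IARS1 in 2, and NARS1 and TARS1 in 1 each. Median centring was among them for each gene (adjusted p up to 0.59, limma). EPRS1, FARSB, RARS1 and YARS1 kept their calls in every alternative. AARS1, GARS1 and SARS1, which led the rise at 96 h, had log2 fold changes of -0.02, -0.04 and -0.03 at 48 h and were not called.

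The change of each effect between the times was tested as an interaction. For siPDIA5, 11 cytosolic genes had a more positive and 5 a more negative effect at 96 h, and 4 mitochondrial genes a more negative one, against 9.22% and 9.09% of all genes (18.3% in all). The medians were 0.25 and -0.13, against 0.03 over all genes. After median centring the cytosolic counts were 9 and 5, with 782 genes more positive and 1419 more negative overall in place of 1077 and 1062. AARS1 led with a difference of 0.94 ± 0.06 (adjusted p = 3e-08, limma). For siPDIA1, 6 cytosolic genes and MARS2 had a more negative effect at 96 h and no synthetase a more positive one, against 2.97% and 2.5% of all genes (5.47% in all). CARS1 gave the largest of these differences, -0.64 ± 0.11 (adjusted p = 0.0021, limma).

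Control cells changed over the same time. In siNC at 96 h against 48 h, 8 cytosolic genes were called lower and 1 higher (QARS1) and 1 mitochondrial gene higher (HARS2), against 13.3% and 11% of all genes (24.3% in all). The calls of QARS1 and HARS2 were lost in 6 and 5 alternatives. A fit of the siNC libraries alone called 4 cytosolic genes lower and no synthetase higher, and 1085 genes in place of 2839. GARS1 fell from 17.5 ± 0.62 to 12.4 ± 0.19 RPKM and AARS1 from 44.5 ± 0.17 to 34.9 ± 0.46. AARS1 with siPDIA5 stood at 43.7 ± 0.79 RPKM at 48 h and 66.8 ± 2.0 at 96 h, so it exceeded the control of either time at 96 h. That does not extend to every gene that rose with siPDIA5. LARS1 had a log2 fold change of -0.26 in siNC over time, close in size to its rise with siPDIA5 at 96 h.

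Set directly against each other at 96 h, siPDIA1 gave 3 cytosolic genes higher and 11 lower than siPDIA5, and 7 mitochondrial genes higher and none lower, against 27.7% and 20.9% of all genes (48.5% in all). The medians were -0.36 and 0.24, against 0.04 over all genes. GARS1 differed most, by -1.31 ± 0.05 on the log2 scale (adjusted p = 7.6e-12, limma), then CARS1 (-0.98), AARS1 (-0.89), YARS1 (-0.87) and SARS1 (-0.87). VARS1 (0.50), QARS1 (0.50) and KARS1 (0.37) were the cytosolic genes higher with siPDIA1. MARS2, IARS2, FARSA and FARSB fell with both siRNAs at 96 h. They differed between the siRNAs by -0.09, -0.02, -0.06 and 0.09, with standard errors of 0.07, 0.04, 0.07 and 0.05. None of these differences was called, nor was that of RARS1, which also fell with both. CARS2 and LARS2 fell with both as well, but they were called higher with siPDIA1 than with siPDIA5. At 48 h the cytosolic counts were 11 higher and 1 lower with siPDIA1 and the mitochondrial counts 6 and 0, against 26.3% and 14.9% of all genes (41.2% in all). Median centring changed those counts to 4 and 3 and to 4 and 3, with 2041 genes higher and 2650 lower overall in place of 3070 and 1743. Quantile normalization gave 12 and 2 cytosolic and 5 and 1 mitochondrial genes, with 2278 and 2248 overall.

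Cytosolic and mitochondrial enzymes for the same amino acid could be set side by side in 15 pairs, with FARSA and FARSB both paired to FARS2. The log2 ratio was taken as the difference in log2(RPKM + 1), which understates changes of low genes, here more often the mitochondrial ones. Pairs were counted by sign alone, without a test. With siPDIA5 at 96 h the log2 ratio of the cytosolic to the mitochondrial level was above that of siNC in 14 pairs, with a median change of 0.47. The changes of FARSA and FARSB with FARS2, which share 1 mitochondrial gene, were 0.01 and 0.05 on this scale. FARS2 averaged 3.24 RPKM, a level at which the added 1 matters. By mean RPKM, siPDIA5 stood at 0.72 and 0.73 of siNC for FARSA and FARSB, against 0.65 for FARS2. For FARSA with FARS2 the SD of the ratio was 0.11 with siNC and 0.08 with siPDIA5. The shift was greatest for CARS1 with CARS2 (1.33), MARS1 with MARS2 (1.22), AARS1 with AARS2 (1.20) and LARS1 with LARS2 (1.06). RARS1 with RARS2 was the exception, at -0.09. With siPDIA1 at 96 h the ratio was above that of siNC in 3 pairs and below it in 12, with a median change of -0.14. Some of these changes were small as well. NARS1, IARS1 and SARS1 changed against their mitochondrial partners by -0.009, -0.013 and -0.031, and HARS1 against HARS2 by 0.06. By mean RPKM, without the added 1, NARS1 stood at 0.895 of siNC and NARS2 at 0.891. SARS1 stood at 0.892 and SARS2 at 0.884. By that measure the asparagine and serine pairs lay slightly above siNC, so their sign depended on the scale. At 48 h the ratio was above that of siNC in 7 pairs with siPDIA1 and in 8 with siPDIA5. The methionine and leucine pairs were above siNC with both siRNAs at 96 h (siPDIA1, 0.54 and 0.45), and the glutamate pair fell furthest with siPDIA1 (-0.74), since EPRS1 fell and EARS2 rose.

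**Figure D5:**
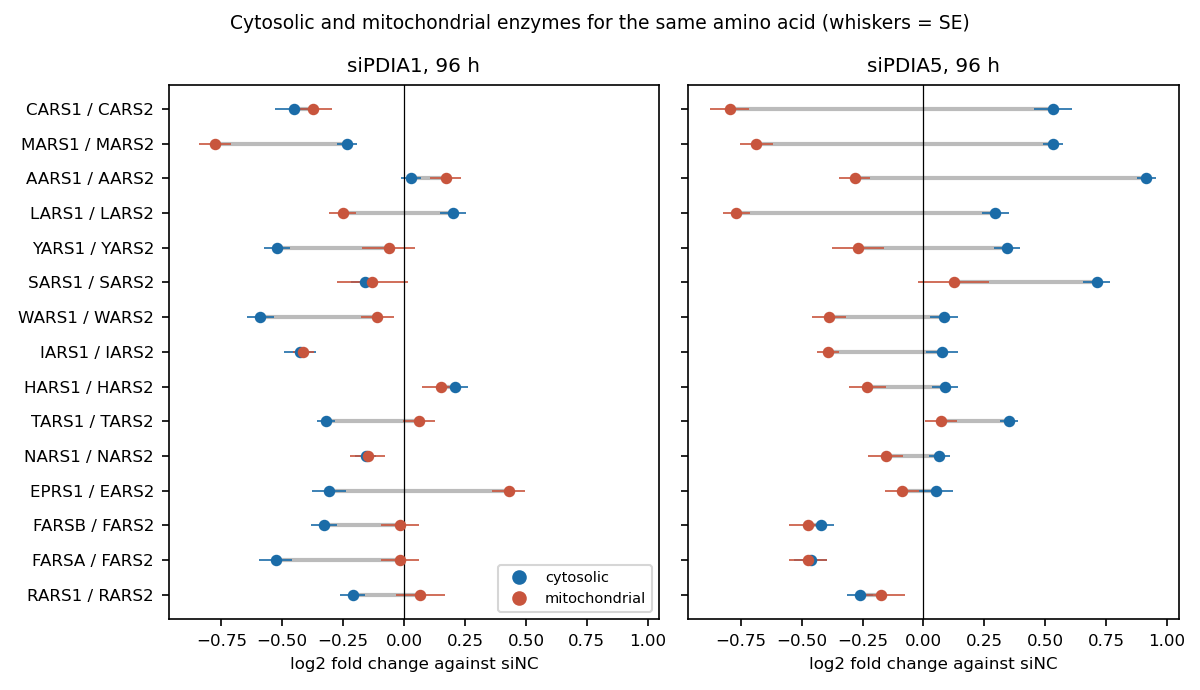
Log2 fold change against siNC at 96 h of the cytosolic (blue) and mitochondrial (red) enzyme for the same amino acid, joined by a line, with SE as whiskers. With siPDIA5 the blue point lies to the right of the red one in 14 of 15 pairs, by only 0.01 and 0.05 for FARSA and FARSB with FARS2.

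The cytosolic synthetases divide into 7 that belong to the multisynthetase complex and 12 outside it, and no difference between these groups was tested. Over all genes at 96 h, 20.8% were higher and 30.3% lower with siPDIA5, and 20.1% and 25.2% with siPDIA1. With siPDIA5 at 96 h 2 of 7 were called higher and 3 lower inside the complex (median 0.05), and 6 of 12 higher and 3 lower outside it (median 0.22). With siPDIA1 at 96 h 3 were higher and 4 lower inside (median -0.21), and 1 higher and 9 lower outside (median -0.33). The 3 scaffold genes gave 1 call with siPDIA1 at 96 h, EEF1E1, which was lower (log2 fold change -0.52 ± 0.14), and none with siPDIA5 at 96 h.

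XPOT, the exporter of mature tRNA from the nucleus, fell from 60.8 ± 2.1 to 27.5 ± 0.39 RPKM with siPDIA1 at 48 h and from 48.5 ± 4.1 to 21.4 ± 0.66 at 96 h, log2 fold changes of -1.12 and -1.15. With siPDIA5 at 96 h XPOT rose to 61.3 ± 1.5 RPKM (0.33 ± 0.08). In the list of 15 tested genes for processing and charging of mitochondrial tRNA, 9 were called lower and none higher at 96 h with either siRNA, with medians of -0.22 for siPDIA1 and -0.33 for siPDIA5, while 25.2% and 30.3% of all genes were called lower. ELAC2, which trims the 3′ end of tRNA precursors, fell most with siPDIA1 (-0.81), and TRMT10C, a subunit of mitochondrial RNase P, with siPDIA5 (-0.70). Of 11 tested mitochondrial translation factors 7 were called lower and none higher with siPDIA5 at 96 h (all genes, 30.3% lower), TUFM, the elongation factor that carries charged tRNA to the mitochondrial ribosome, among them (-0.34). The list for cytosolic elongation was not limited to the elongation factors themselves. Of its 7 tested genes 4 were called higher and 1 lower with siPDIA1 at 96 h (all genes, 20.1% and 25.2%). With siPDIA5 1 was higher and 3 lower (all genes, 20.8% and 30.3%). EEF2, which moves the ribosome along the message, was called in both, at 0.36 with siPDIA1 and -0.32 with siPDIA5.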

How the data were processed

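Gene values of 18 RNA-seq libraries (6 groups of 3) were analysed. The authors deposited RPKM for every gene in each library, and their table has no counts. Tools named in the submitters' processing notes are cutadapt 1.8, featureCounts, STAR 2.7.0f, R 3.4.1 and DESeq2, with hg38 (GRCh38) as the build. The sources used here do not give the annotation release, the strand setting or the handling of multiply mapped reads. Genes with overlaps or with named pseudogenes (AARS1, CARS1, FARSB, GARS1, KARS1, NARS1, RARS1, WARS1, IARS2, TARS2 and WARS2) are uncertain to that extent. Coordinates are from GENCODE 29. Depth was estimated from low values (up to 20 reads), of which 99.6% to 99.8% per library were whole multiples of 1 step to within 0.1 read, and it entered no test.

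Values were analysed as log2(RPKM + 1), which understates changes of low genes. The 11685 genes averaging at least 1 RPKM were fitted with limma 3.58.1 in R 4.3.3 (all 18 libraries, 1 mean per group, moderated by empirical Bayes with a trend). Benjamini-Hochberg adjustment ran over these genes in each comparison, and the procedure was tested on simulated data. Errors are SD for RPKM and SE for log2 fold changes. All 35 synthetases are accounted for, with P4HB and PDIA5; from each other list the text draws on up to 3 called members per comparison with the smallest adjusted p. ASNS, DDIT3 and values of such genes in further comparisons were chosen after they had been seen. The members and lists were chosen with earlier results of these data known. Alternatives were a pseudocount of 0.25, no filter, at least 5 RPKM, median centring, quantile normalization, a replicate block, fitting the compared groups alone, and leaving out each library.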

Additional observations from a re-analysis of the deposited data

Results flagged for a closer look

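The effects of 27 synthetase results differed between 48 h and 96 h by the limma test of the interaction (adjusted p under 0.05), and are given here as the log2 effect at 96 h minus that at 48 h. For siPDIA1 the difference was -0.64 for CARS1, -0.50 for GARS1, -0.49 for YARS1, -0.43 for SARS1, -0.42 for WARS1, -0.35 for MARS2 and -0.33 for TARS1. For siPDIA5 it was positive for AARS1 (0.94), GARS1 (0.85), SARS1 (0.74), CARS1 (0.68), MARS1 (0.67), YARS1 (0.58), TARS1 (0.49), EPRS1 (0.47), IARS1 (0.30), NARS1 (0.25) and LARS1 (0.24). It was negative for LARS2 (-0.49), VARS1 (-0.49), CARS2 (-0.48), AARS2 (-0.41), FARSA (-0.38), MARS2 (-0.38), QARS1 (-0.32), KARS1 (-0.27) and HARS1 (-0.26). The siNC libraries enter both sets of differences. In the siPDIA5 set the calls of IARS1 and LARS1 were each lost in 12 alternatives (adjusted p up to 0.097 and 0.115, limma), that of HARS1 in 5 and that of KARS1 in 1, and in the siPDIA1 set that of MARS2 was lost in 12.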

How the results depend on the processing

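Of the called synthetase results, 10 of 14, 19 of 23, 9 of 17 and 20 of 23 kept their call in every alternative for siPDIA1 against siNC at 48 h and 96 h and siPDIA5 against siNC at 48 h and 96 h; YARS2 with siPDIA5 at 96 h was lost in 10 alternatives. Values below are counts of genes or median log2 fold changes, and no cause of a shift was tested. VARS1 with siPDIA1 at 96 h, not called, changed sign under quantile normalization (0.011) and was called lower without siPDIA1 library 1 (-0.15), while the sign also changed for MARS1 in siPDIA1 against siPDIA5 at 48 h under median centring (-5.98e-05). With no filter, 2 cytosolic genes were lower and 1 mitochondrial gene higher for siPDIA1 at 48 h, 1 mitochondrial higher for siPDIA1 at 96 h and 0 for siPDIA5 at 48 h; the siPDIA1 interaction kept 0 mitochondrial genes, and siNC over time 0 cytosolic and 0 mitochondrial genes higher. With a mean of at least 5 RPKM, which leaves fewer genes, 3505 genes were called for siPDIA5 at 48 h, 3058 for siPDIA1 against siPDIA5 at 48 h and 3775 at 96 h, in place of 5352, 4813 and 5672.

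Median centring gave, for siPDIA5 at 48 h, 4 cytosolic genes higher and 4 lower and medians of -0.033 (cytosolic) and -0.0088 (mitochondrial); for siPDIA5 at 96 h a cytosolic median of 0.13 and 1 mitochondrial gene higher; for siPDIA1 against siPDIA5 at 48 h, 4 cytosolic higher and 3 lower, 3 mitochondrial lower and medians of 0.049 and 0.034; and for the siPDIA5 interaction medians of 0.19 and -0.19. Quantile normalization gave 2 cytosolic lower for siPDIA1 at 48 h, a cytosolic median of -0.16 for siPDIA1 at 96 h, and a mitochondrial median of -0.053 for siPDIA5 at 48 h. For siPDIA5 at 96 h it gave medians of 0.16 and -0.21 and 1 mitochondrial gene higher. For siPDIA1 against siPDIA5 at 48 h it gave 2 cytosolic and 1 mitochondrial genes lower and medians of 0.19 and 0.072. The interaction medians became -0.16 (siPDIA1, cytosolic, with 0 mitochondrial genes lower) and 0.31 (siPDIA5, cytosolic), and siNC over time had a cytosolic median of -0.14 and 2 mitochondrial genes higher. A fit of the compared groups alone called 1 mitochondrial gene higher for siPDIA1 at 96 h and 1 for siPDIA5 at 48 h, and for siNC over time 1085 genes in place of 2839, with 0 cytosolic higher, 4 lower and 0 mitochondrial higher.

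Leaving out 1 library at a time gave these ranges. For siPDIA1 at 48 h cytosolic lower calls were 2 to 4 (2 without siNC library 2 or siPDIA1 library 1 or 3), mitochondrial higher calls 1 to 3 (1 without siNC 2 or siPDIA1 1 or 2) and the mitochondrial median 0.014 to 0.073. For siPDIA1 at 96 h mitochondrial higher calls were 1 to 3 (1 without siNC 1 or 3 or siPDIA1 2 or 3) and the median -0.11 to 0.041. For siPDIA5 at 48 h cytosolic higher calls were 1 to 2 (2 without siPDIA5 1) with a median of -0.15 to -0.10, and mitochondrial higher calls 0 to 2 (0 without siNC 3, 1 without siNC 2 or any siPDIA5 library) with a median of -0.18 to -0.091. For siPDIA5 at 96 h the cytosolic median was 0.064 to 0.14, mitochondrial higher calls 0 to 1 and their median -0.31 to -0.21. For siPDIA1 against siPDIA5 at 48 h cytosolic higher calls were 7 to 10 (7 without siPDIA5 1), the median 0.12 to 0.16 and mitochondrial lower calls 0 to 1; at 96 h mitochondrial lower calls were 0 to 1 and the median 0.18 to 0.28. The siPDIA1 interaction had a cytosolic median of -0.22 to -0.17 and 0 to 1 mitochondrial lower calls, and the siPDIA5 interaction a cytosolic median of 0.21 to 0.29. For siNC over time 1657 to 3879 genes were called (1657 without siNC 1 at 96 h), with 0 to 2 cytosolic and 0 to 2 mitochondrial genes higher and 0 to 1 mitochondrial lower.

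Deviations from the group means correlated weakly between same-numbered libraries: 4 of 45 such pairs had a correlation over 0.1 (range -0.257 to 0.139). Pairs with different numbers were not computed for comparison, so whether the replicate numbers pair the libraries was not decided. With the replicate block the counts were 6 and 4, 4 and 13, 1 and 9, and 8 and 6 cytosolic genes higher and lower in the 4 comparisons with siNC, and 8 in place of 9 mitochondrial genes lower with siPDIA5 at 96 h. Of 113 synthetase results called in no fit, 47 changed sign in some alternative. The depth of each library is an estimate, no counts enter the tests, and 3 libraries per group limit the precision.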
